A study of Mus musculus with 8 samples.

Results

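The expression of 5 adenosine genes was followed in ribosome-bound RNA from the nucleus accumbens and the dorsal striatum of old mice. Members were picked by symbol as Adora1 and Adora2a, which encode receptors, Nt5e, an enzyme that makes adenosine, Adk, an enzyme that removes it, and Slc29a1, a transporter that carries it. All 5 were among the 32531 genes counted, and all 5 passed the filter on low counts that left 12467 genes for testing. The accumbens group held 4 immunopurified libraries and the dorsal striatum group held 4. Every library came from mice of the Drd1-EGFP/Rpl10a line (CP73) aged over 20 months, untreated, so both groups share the transgene and the age. In this line the promoter of the D1 dopamine receptor gene drives the ribosomal protein L10a joined to enhanced green fluorescent protein, and tagged polysomes were captured with antibodies to that protein. The labels do not say whether a library held 1 animal or a pool, so a p-value here measures the spread between these libraries, which may be technical.

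Adenosine is made outside cells by stepwise removal of phosphates from ATP, a chain that ends with the enzyme encoded by Nt5e, and it also crosses the membrane through equilibrative carriers such as the product of Slc29a1. The Adora1 receptor couples to inhibitory G proteins and lowers cyclic AMP, whereas the Adora2a receptor couples to stimulatory G proteins, in striatum mainly Golf, and raises it. In the striatum Adora2a is known as a marker of indirect-pathway projection neurons, where it opposes the D2 dopamine receptor, while Adora1 is found on many neurons, D1 neurons among them.

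Reads assigned to genes ran from 10831937 to 12639641 per accumbens library and from 7466970 to 10363145 per dorsal library, and every accumbens library was the deeper. Levels are given as CPM, the counts of a gene scaled to a common library size, after adjustment between libraries. A count of 3, taken as the limit that a count of 0 allows, corresponded to 0.237 to 0.414 CPM, and covers counting error only. Direct-pathway markers were above 0 in every library for 9 of 9 genes, with summed levels of 1977 to 2243 CPM in accumbens and 2318 to 2653 CPM in dorsal striatum. Of that list, 2 of 9 genes had log2 fold changes (accumbens over dorsal striatum) above 0, and the median was -0.36. Pdyn, the dynorphin precursor gene, was called higher in accumbens (426 ± 37.3 CPM against 210.4 ± 37.8 CPM in dorsal striatum, SD, n = 4 each). Ebf1 and Eya1, which encode transcriptional regulators, were called lower (log2 fold changes -1.25 and -0.55), Eya1 not with a glial covariate (adjusted p = 0.163). Indirect-pathway markers other than Adora2a summed to 684 to 961 CPM in accumbens and 230 to 361 CPM in dorsal striatum. That sum is mostly Penk, at 542 to 777 CPM in accumbens and 188 to 274 CPM in dorsal striatum. Accumbens 2 and dorsal striatum 3 resembled the other libraries least, with median Spearman correlations across genes of 0.927 and 0.935, against 0.936 to 0.955 for the remaining 6 libraries, and values without them are given where a call rests on them.

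Of the 5 genes, 1 differed between regions by the quasi-likelihood test of edgeR, with a threshold of 0.05 on p-values adjusted over all genes by the Benjamini-Hochberg method. It was Adora2a, higher in accumbens. Of all tested genes 3.72% passed that threshold (1.6% higher and 2.12% lower in accumbens). For the other 4 genes the regions overlapped, and the plot of each library's level shows how far single libraries spread within a region.

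**Figure D1:**
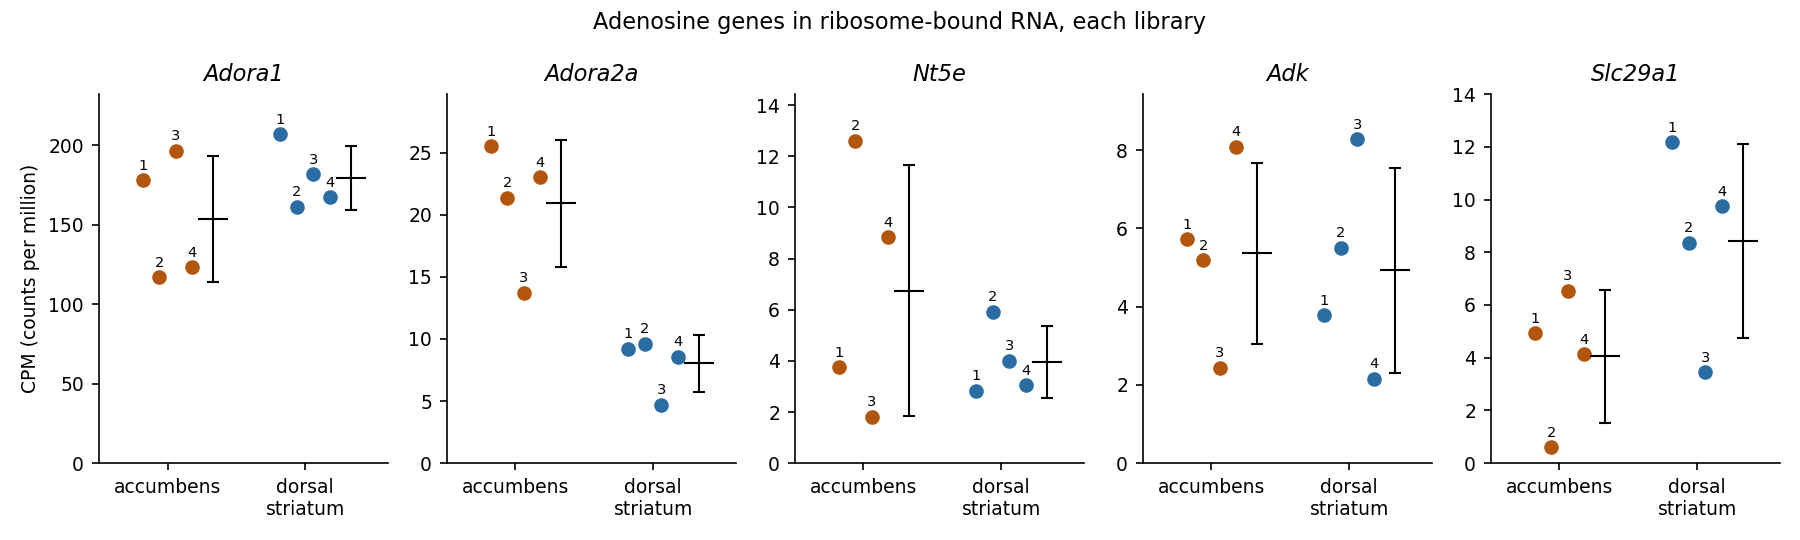
CPM of the 5 adenosine genes in each library (points, numbered by replicate; accumbens left, dorsal striatum right), with the mean and SD of 4 libraries as bars beside them, each panel on its own axis from 0. The Adora2a points of accumbens (13.7 to 25.5 CPM) lie above those of dorsal striatum (4.70 to 9.63 CPM), and the other 4 panels overlap.

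Adora2a (chromosome 10, 75316877 to 75334784, plus strand; GENCODE M21 on GRCm38, which shares mm10 coordinates) had 25.5, 21.4, 13.7 and 23.0 CPM in accumbens libraries 1 to 4, against 9.22, 9.63, 4.70 and 8.56 CPM in dorsal libraries 1 to 4. These values rest on 174 to 285 reads per accumbens library and 34 to 91 reads per dorsal library. The lowest accumbens library, number 3, was above the highest dorsal one, number 2. Such a lack of overlap was found for 9.7% of all tested genes (4.5% with accumbens the higher and 5.2% with accumbens the lower). The mean was 20.9 ± 5.08 CPM in accumbens and 8.03 ± 2.26 CPM in dorsal striatum (SD, n = 4 each), which corresponds to 1.38 ± 0.34 SE as log2 of accumbens over dorsal striatum (adjusted p = 0.0292). On the linear scale that is 2.60-fold, with a 95% interval of 1.58 to 4.28 that is not adjusted for the number of genes. In these bulk captures, more cells of a type and more RNA per cell cannot be told apart.

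The call of Adora2a was lost when any 1 of 6 libraries was left out. Its adjusted p was 0.101 without accumbens 1, 0.0765 without accumbens 4, 0.0617 without dorsal striatum 1, 0.0522 without dorsal striatum 2, 0.0806 without dorsal striatum 3 and 0.0608 without dorsal striatum 4, while the log2 fold change stayed between 1.19 and 1.54 over the 8 fits that left out a library. With both accumbens 2 and dorsal striatum 3 left out it was 1.18 (adjusted p = 0.0929). With a covariate for the mean level of glial markers (astrocyte, oligodendrocyte and microglia lists) it was 1.12 (adjusted p = 0.456).

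Adora2a was accompanied by the other listed markers of indirect-pathway neurons, which are not the cells that the D1 promoter is used to mark. Log2 fold changes were above 0 for all 6 other listed markers, and their median was 1.20, against 0.02 over all tested genes, and 3 of them were called higher in accumbens. Positive values were also found for 9 of 9 tested endothelial markers (median 0.54), 5 of 5 of oligodendrocytes (0.58), 5 of 5 of mural cells and fibroblasts (0.70) and 3 of 3 of GABA interneurons (0.20), beside 51.8% of all tested genes. None of the markers in these lists was called, and their summed levels overlapped between regions. Other lists were mixed, with positive values for 6 of 8 astrocyte markers (1 called in each direction), 2 of 4 of oligodendrocyte precursors and 3 of 5 of cortical excitatory neurons. The 10 microglial markers summed to 4.79 to 17.3 CPM in accumbens and 0.984 to 4.45 CPM in dorsal striatum, without overlap. Of the 5 cholinergic interneuron markers 1 was tested, with a positive value and not called. That list summed to 5.91 to 25.6 CPM in accumbens and 1.18 to 10.2 CPM in dorsal striatum. Markers shared by striatal projection neurons were above 0 for 0 of 10 genes (median -0.60, 5 called lower in accumbens). Of the indirect-pathway markers, Gpr6 was at 0 in 1 dorsal library, and the other 5 were above 0 in every library. Drd2, the D2 dopamine receptor gene, rose to 55.9 ± 11.7 CPM in accumbens, against 25.8 ± 7.95 CPM in dorsal striatum (SD, n = 4 each; adjusted p = 0.0167). Penk, which encodes the enkephalin precursor, averaged 605 ± 115 CPM in accumbens and 248 ± 40.8 CPM in dorsal striatum (adjusted p = 7.87e-05). The kainate receptor gene Grik3 stood at 68.3 ± 18.4 CPM in accumbens and 20.0 ± 15.4 CPM in dorsal striatum (adjusted p = 0.0102), with an overlap between the regions. Gpr6, Gpr52 and Sp9 had log2 fold changes of 1.91, 0.68 and 0.77 and were not called (adjusted p = 0.259, 0.5002 and 0.398). Whether the Adora2a difference came from tagged cells or from other cells, such as those of these lists, was not tested. The glial covariate holds only astrocyte, oligodendrocyte and microglia genes and partly follows region. Drd2 was no longer called without accumbens 1, dorsal striatum 3 or dorsal striatum 4 (adjusted p up to 0.0759), and neither Drd2 nor Grik3 was called with the glial covariate (0.424 and 0.128). Grik3 was not called either without both accumbens 2 and dorsal striatum 3 (0.0610).

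Ratios within a library do not depend on scaling between libraries, but they carry the differences of both genes. The log2 fold changes of Drd1 and Adora1 were -0.47 and -0.22, neither called. Per 100 counts of Drd1, the gene whose promoter drives the tag, there were 5.78, 3.86, 3.79 and 6.05 Adora2a counts in accumbens libraries 1 to 4, against 1.45, 1.81, 0.813 and 1.28 in dorsal libraries 1 to 4. Per 100 counts of Drd2 there were 35.3, 45.4, 28.5 and 41.2 Adora2a counts in accumbens, against 28.5, 30.0, 29.6 and 37.5 in dorsal striatum. The Drd1 ratios of the regions were apart, whereas the Drd2 ratios overlapped, and so did those to Penk, at 2.53 to 4.18 Adora2a counts per 100 in accumbens and 2.49 to 3.52 in dorsal striatum.

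The mean log2 ratio of Adora2a to Drd1 was higher in accumbens by 1.88, or 3.68-fold, and that to Adora1 by 1.64, or 3.12-fold. Each had a two-sided exact permutation p of 0.0286, the smallest that 4 against 4 libraries can give, and 0.0571 after Benjamini-Hochberg adjustment over the 4 ratios, so neither passed the correction, though all 4 accumbens libraries exceeded all 4 dorsal ones. The difference was 0.24 on the log2 scale for the ratio to Drd2 (exact permutation p = 0.257, adjusted 0.343) and 0.11 for that to Penk (exact permutation p = 0.600, adjusted 0.600). Those p-values do not show that Adora2a kept the same proportion to Drd2 or Penk in both regions.

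**Figure D2:**
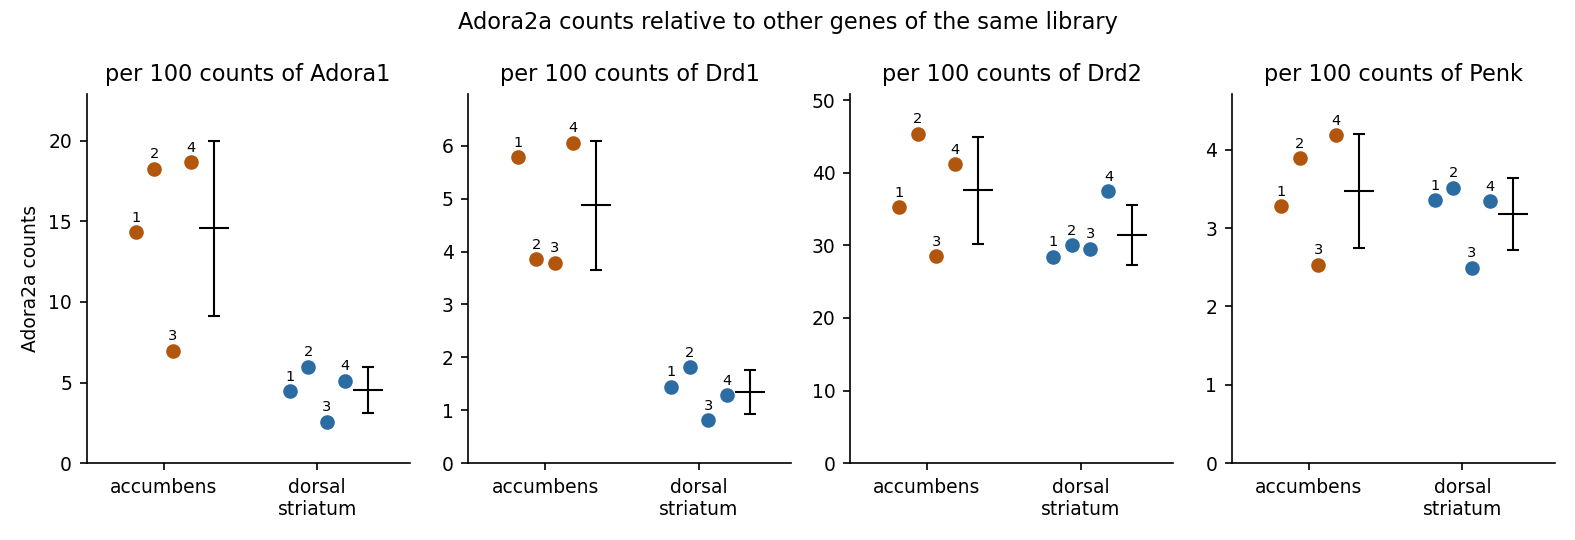
Adora2a counts per 100 counts of Adora1, Drd1, Drd2 and Penk in the same library (points, numbered by replicate; accumbens left, dorsal striatum right), with the mean and SD of 4 libraries. The regions are apart for the ratios to Adora1 and Drd1 (3.79 to 6.05 in accumbens and 0.813 to 1.81 in dorsal striatum for Drd1) and overlap for those to Drd2 and Penk.

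Adora1 (chromosome 1, 134199223 to 134235431, minus strand) was the most abundant of the 5 genes in CPM and per length. It had 178, 117, 197 and 123 CPM in accumbens libraries 1 to 4, from 1375 to 2494 reads each, against 207, 161, 182 and 167 CPM in dorsal libraries 1 to 4, from 1318 to 1751 reads each. Accumbens 2 and 4 were below every dorsal library, while accumbens 1 and 3 lay within the dorsal range. Means were 154 ± 39.6 CPM in accumbens and 179 ± 20.3 CPM in dorsal striatum (SD, n = 4 each), and the log2 fold change was -0.22 ± 0.17 SE (adjusted p = 0.635). The 95% interval of the fold, 0.666 to 1.11, leaves out a doubling in accumbens. Of its exon bases 20.1% overlap Mybph on the opposite strand, a gene that had 0 reads in each accumbens library and at most 31 in a dorsal one. Reads in that overlap cannot be told apart here, since how the counting treated strand is not known from the labels.

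The remaining adenosine receptors were at or near 0. Adora3 had 0 reads in all 8 libraries, which allows up to 0.237 to 0.414 CPM, and Adora2b had 4 reads in accumbens 1, 1 read in dorsal striatum 2 and 0 in the others. Of all reads from the 4 receptor genes, Adora2a took 12.5%, 15.4%, 6.52% and 15.7% in accumbens libraries 1 to 4, against 4.26%, 5.63%, 2.51% and 4.87% in dorsal libraries 1 to 4. The Wilson 95% interval of the lowest accumbens share was 5.65% to 7.52% and that of the highest dorsal share 4.61% to 6.86%, and both cover counting error only, since reads are not independent molecules. The means were 12.5% ± 4.27 in accumbens and 4.32% ± 1.33 in dorsal striatum (SD, n = 4 each).

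Levels of different genes were compared as CPM per kilobase of merged exon. In accumbens the order of the means was Adora1 at 26.6 ± 6.85, Adora2a at 6.83 ± 1.66, Slc29a1 at 1.01 ± 0.627, Nt5e at 0.785 ± 0.569 and Adk at 0.629 ± 0.272 CPM per kb (SD, n = 4 each). The ranges of the last 3 genes overlapped there, while those of Adora1 and Adora2a were apart from each other and from the rest. In dorsal striatum the order was Adora1 at 31.0 ± 3.50, Adora2a at 2.62 ± 0.739, Slc29a1 at 2.10 ± 0.916, Adk at 0.579 ± 0.307 and Nt5e at 0.460 ± 0.164 CPM per kb. Adora2a overlapped Slc29a1 in that region, and Adk overlapped both Nt5e and Slc29a1, while Nt5e lay below every Slc29a1 library. Mean Adora1 was thus 3.90 times mean Adora2a per kilobase in accumbens and 11.8 times in dorsal striatum. With the longest transcript as length Slc29a1 stood at 3.804 CPM per kb in dorsal striatum, above the 3.09 CPM per kb of Adora2a, which turns their order round.

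**Figure D3:**
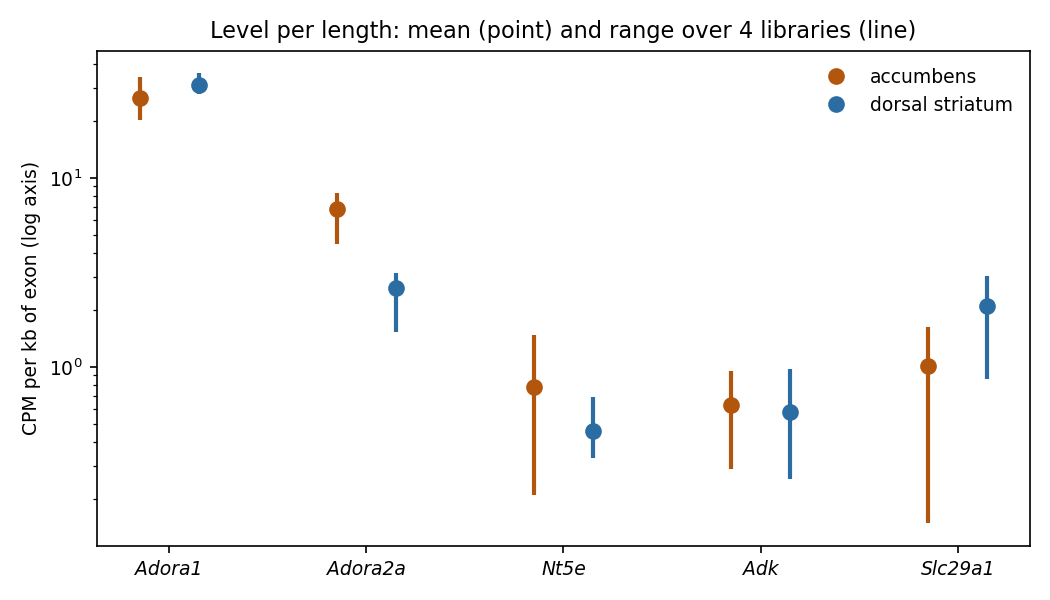
Mean level (point) and lowest to highest library (line) of the 5 genes in CPM per kilobase of merged exon on a log axis, accumbens left of dorsal striatum for each gene, 4 libraries per region. Adora1 lies highest in both regions (26.6 in accumbens and 31.0 in dorsal striatum), and the accumbens lines of Nt5e, Adk and Slc29a1 overlap.

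Nt5e (chromosome 9, 88327197 to 88372092, plus strand) encodes CD73, the cell-surface enzyme that turns AMP into adenosine. It had 3.76, 12.6, 1.81 and 8.83 CPM in accumbens libraries 1 to 4, against 2.84, 5.93, 4.005 and 3.05 CPM in dorsal libraries 1 to 4. Accumbens 2 and 4 were above every dorsal library, and accumbens 3 was below all of them, a 6.95-fold range within accumbens on 23 to 148 reads. The mean of 6.75 ± 4.90 CPM in accumbens and 3.95 ± 1.41 CPM in dorsal striatum (SD, n = 4 each) differed by 0.77 ± 0.61 SE on the log2 scale (adjusted p = 0.637). Its 95% interval of 0.696 to 4.18-fold holds both a lower and a higher level in accumbens. Entpd1, which encodes an enzyme one step earlier in the same chain, also spread widely within accumbens, at 1.61, 38.6, 3.39 and 13.1 CPM in libraries 1 to 4, against 9.33, 19.9, 19.6 and 15.5 CPM in dorsal libraries 1 to 4. Accumbens 2 and 4 were the higher libraries for both enzymes and the lower ones for Adora1.

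Adk (chromosome 14, 21052574 to 21448569, plus strand) encodes adenosine kinase, which returns adenosine to AMP and in adult brain is found largely in astrocytes. Its levels were 5.73, 5.20, 2.45 and 8.09 CPM in accumbens libraries 1 to 4, against 3.78, 5.50, 8.29 and 2.16 CPM in dorsal libraries 1 to 4. The accumbens range lay within the dorsal one. Means of 5.36 ± 2.32 CPM in accumbens and 4.93 ± 2.62 CPM in dorsal striatum (SD, n = 4 each) differed by 0.13 ± 0.58 SE on the log2 scale (adjusted p = 0.959), with a 95% interval of 0.468 to 2.54-fold. The sign of that change was the opposite without accumbens 4 (-0.14), without dorsal striatum 4 (-0.13) and with the glial covariate (-0.49). The 10 astrocyte markers summed to 969, 803, 745 and 467 CPM in accumbens libraries 1 to 4 and to 720, 770, 870 and 737 CPM in dorsal libraries 1 to 4. That sum is mostly Slc1a2 and Slc4a4, which were called in opposite directions, with log2 fold changes of 0.91 for Slc1a2 (adjusted p = 0.0452, lost under 11 of 17 alternatives, among them leaving out any accumbens library but accumbens 4 or any dorsal one but dorsal striatum 2) and -1.01 for Slc4a4 (adjusted p = 5.85e-04). In accumbens 4, the accumbens library with the most Adk, these transporter genes were the lowest of the region, as were Slc1a3, Aldoc, Gja1 and Gjb6. Only Aqp4, Gfap and Fgfr3 of the list were the highest of the region there. In dorsal striatum 3, which had the most Adk of all libraries (8.29 CPM), the astrocyte sum was the highest of the dorsal ones (870 CPM). Slc4a4 alone made up 609 CPM of that sum. Slc4a4, Slc1a3 and Fgfr3 were the highest of the dorsal libraries there, no other gene of the list was, and Gjb6 had 0 reads. The part of astrocyte RNA in the Adk level was not tested, since the glial covariate mixes astrocyte genes with those of other glia.

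Slc29a1 (chromosome 17, 45585200 to 45599606, minus strand) encodes the equilibrative nucleoside transporter ENT1. It had 4.92, 0.596, 6.55 and 4.13 CPM in accumbens libraries 1 to 4, against 12.2, 8.36, 3.45 and 9.74 CPM in dorsal libraries 1 to 4. Accumbens 2 was the lowest, with 7 reads and an exact Poisson 95% interval of 0.240 to 1.23 CPM, and the single dorsal library within the accumbens range was number 3, the shallowest. Means were 4.05 ± 2.51 CPM in accumbens and 8.43 ± 3.67 CPM in dorsal striatum (SD, n = 4 each). The log2 fold change of -1.06 ± 0.62 SE was not called (adjusted p = 0.467), and its 95% interval ran from 0.194 to 1.19-fold. Endothelial markers, listed because brain vessels also use this carrier, summed to 137, 35.9, 48.8 and 283 CPM in accumbens libraries 1 to 4 and to 26.0, 74.2, 132 and 43.0 CPM in dorsal libraries 1 to 4, and their part in the Slc29a1 level was not tested. Of its exon bases 6.86% overlap an antisense gene.

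The rest of the pathway was described from 10 lists of genes that make, move, remove or sense adenosine and ATP. Of their 69 genes 39 were tested, 12 had no read in any library, and the median log2 fold change of the tested ones was -0.03, against 0.02 over all tested genes. Of the 39, 4 were called higher in accumbens and 2 lower, beside the 3.72% called among all genes. All 5 called genes other than Adora2a were G proteins or partner receptors. Of 20 tested genes on the lists for making, moving or removing adenosine, which also hold relatives of such genes, edgeR called 0. At an unadjusted p under 0.05 in edgeR were 2 of the 20, Ahcyl1 and Ahcyl2, both listed only as relatives of the hydrolase gene Ahcy. DESeq2 called 1, Ahcyl1, and limma-voom 0. At an unadjusted p under 0.05 stood 12 of the 39, against 1850 of all 12467 genes.

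**Figure D4:**
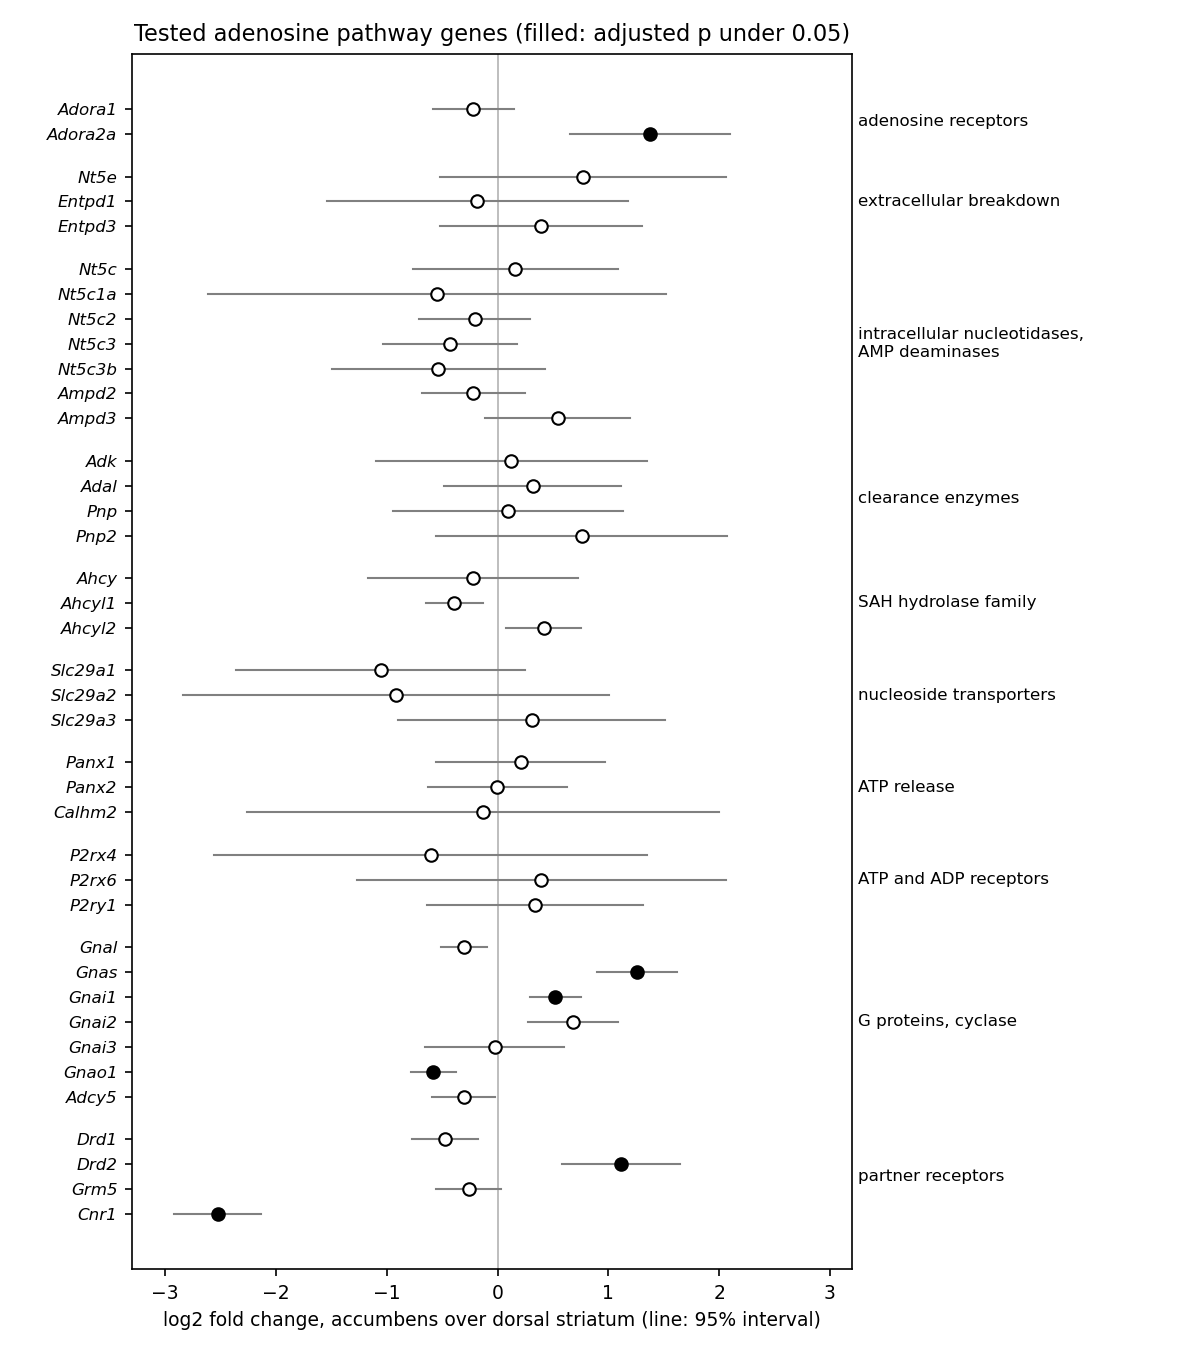
Log2 fold change, accumbens over dorsal striatum, of the 39 tested pathway genes by list (circle, filled where the adjusted p was under 0.05), with its 95% interval, not adjusted for the number of genes, as a line. The filled circles right of 0 are Adora2a, Gnas, Gnai1 and Drd2, and those left of 0 are Gnao1 and Cnr1.

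G proteins through which adenosine receptors signal included called genes in both directions. Gnas, which encodes the stimulatory alpha subunit, rose to 443 ± 53.4 CPM in accumbens, against 185 ± 50.5 CPM in dorsal striatum (SD, n = 4 each), a difference of 1.26 ± 0.17 SE on the log2 scale (adjusted p = 2.86e-04). Overlaps with other genes take 22.0% of its exon bases, and counts per gene do not separate its 24 annotated transcripts. Gnal, which encodes the alpha subunit of Golf, averaged 2516 ± 190 CPM in accumbens and 3100.0 ± 210.1 CPM in dorsal striatum and was not called (log2 fold change -0.30, adjusted p = 0.117). Among inhibitory subunits, Gnai1 rose to 573 ± 34.0 CPM in accumbens, against 399 ± 18.8 CPM in dorsal striatum (log2 fold change 0.52 ± 0.11 SE, adjusted p = 0.00982). Gnai2, named after its values were seen, stood at 81.3 ± 5.88 CPM in accumbens and 50.7 ± 11.3 CPM in dorsal striatum without overlap and missed the threshold (adjusted p = 0.0603, log2 fold change 0.68 ± 0.19 SE), but passed it by DESeq2 (0.0112) and without a filter on low counts (0.0382). Gnao1 fell to 1291 ± 58.6 CPM in accumbens, against 1928 ± 78.6 CPM in dorsal striatum (log2 fold change -0.58 ± 0.10 SE, adjusted p = 0.00157). The call of Gnai1 was lost with the glial covariate (0.52, adjusted p = 0.113), and that of Gnal was gained with limma-voom (adjusted p = 0.0272).

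Partner receptors of the adenosine receptors in striatum parted too. Besides Drd2, the cannabinoid receptor gene Cnr1 was called, lower in accumbens at 45.9 ± 9.70 CPM, against 265 ± 52.4 CPM in dorsal striatum (SD, n = 4 each; adjusted p = 8.87e-07). Drd1 stood at 435 ± 86.5 CPM in accumbens and 604 ± 60.9 CPM in dorsal striatum (adjusted p = 0.0750), and Grm5, a metabotropic glutamate receptor gene, at 382 ± 75.8 CPM in accumbens and 458 ± 36.0 CPM in dorsal striatum (adjusted p = 0.416). Drd1 passed the threshold, lower in accumbens, with DESeq2 (adjusted p = 0.0323), limma-voom (0.0187) and no filter (0.0398). It also did so when accumbens 2 was left out, alone (0.0167) or together with dorsal striatum 3 (0.0245).

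The lists of nucleotide breakdown held 3 tested genes of extracellular breakdown and 7 intracellular nucleotidases and AMP deaminases, not all of which act mainly on AMP. EdgeR, DESeq2 and limma-voom each called 0 of these 10, and 0 had an unadjusted p under 0.05 in edgeR. On the extracellular list, Entpd3 had a log2 fold change of 0.39 (adjusted p = 0.761). On the intracellular list, Nt5c2, a nucleotidase that prefers IMP and GMP, averaged 47.1 ± 13.8 CPM in accumbens and 54.4 ± 9.28 CPM in dorsal striatum, and Ampd2, an AMP deaminase, 43.9 ± 11.1 CPM in accumbens and 51.1 ± 6.76 CPM in dorsal striatum. Nt5c3 stood at 15.4 ± 2.88 CPM in accumbens and 20.7 ± 4.68 CPM in dorsal striatum (SD, n = 4 each), with an adjusted p of 0.556.

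Genes that remove adenosine or recycle its products, and relatives listed with them, were not called by edgeR either. The purine phosphorylase genes Pnp and Pnp2, close paralogs whose counts are uncertain, had log2 fold changes of 0.09 and 0.76, and Adal, an adenosine deaminase-like gene, 0.32. Ahcyl1, a relative of the enzyme that splits S-adenosylhomocysteine into adenosine and homocysteine, was the most abundant gene of its list, at 427 ± 40.8 CPM in accumbens and 560 ± 59.9 CPM in dorsal striatum (SD, n = 4 each; adjusted p = 0.101). It was called by DESeq2 (adjusted p = 0.0449) and without dorsal striatum 4 (0.0498). Its relative Ahcyl2 had the opposite sign, at 0.42 ± 0.16 SE on the log2 scale (adjusted p = 0.204), and Ahcy, the enzyme itself, -0.22 ± 0.45 SE (0.887).

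The other 2 tested nucleoside transporters were as scarce as Slc29a1. Slc29a2 had 5.64, 0.341, 3.47 and 1.40 CPM in accumbens libraries 1 to 4, against 3.54, 6.56, 0.138 and 10.2 CPM in dorsal libraries 1 to 4 (log2 fold change -0.92, adjusted p = 0.724). Accumbens 2 was the lowest accumbens library for both carriers, and dorsal striatum 3 the lowest dorsal one. These 2 libraries also had the fewest genes detected in their regions (14032 and 14546), and a link to the carrier levels was not tested. Slc29a3, an intracellular carrier, had a log2 fold change of 0.31 (adjusted p = 0.876). Among ATP release genes, Panx1 and Panx2 had log2 fold changes of 0.21 and 0.00 and Calhm2 one of -0.13, and among ATP and ADP receptors P2ry1 had 0.34, P2rx6 0.40 and P2rx4 -0.61, with 0 of the 6 called by edgeR, DESeq2 or limma-voom and 0 at an unadjusted p under 0.05 in edgeR.

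For each of the 5 genes the most similar patterns were sought among 9321 other genes that averaged at least 5 CPM, by Pearson's r of log2 CPM over the 8 libraries. As the highest of many, these values describe the libraries and carry no test. Adora2a was followed most closely by Nrsn1 (r = 0.985), Gfra1 (0.974) and Neo1 (0.972), and by deviations from the region means these r were 0.934, 0.880 and 0.888. For Adora1 the nearest were Rnaseh1 (r = 0.954), Trp53inp2 (0.947) and Eapp (0.935). For Nt5e they were Furin (r = 0.972), Dnajc13 (0.968) and Patl1 (0.952), for Adk Nrd1 (0.938), Clk4 (0.937) and Cdc23 (0.932), and for Slc29a1 Ehbp1 (0.979), Cxx1a (0.972) and Rit2 (0.967).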

How the data were processed

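The deposited files, 1 per library, hold unnormalized counts of reads for each gene symbol, made by the authors with STAR 2.0.0e on mm10 and HTSeq, per the submitters' processing notes. Annotation and strand setting are not given in the sources used here. Reads assigned to no single gene, 27.1% to 40.6% of each library, stayed out of library sizes and tests. Regions were taken from the titles, 4 libraries each. From the counts, all genes were fitted by the quasi-likelihood test of edgeR 4.0.16 (R 4.3.3), with TMM scaling, filterByExpr at a minimum count of 10 and no term but region, with Benjamini-Hochberg adjustment over 12467 genes and calls at an adjusted p under 0.05. Log2 CPM used a prior count of 2, and ratios 0.5 added to each count. Exon positions came from GENCODE M21.

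The members and lists were chosen with earlier results of these data known. Named genes are the members, the called genes and the 3 most abundant tested genes of each pathway list, and the indirect-pathway markers. Gnai2, Pdyn, Ebf1, Eya1, Slc1a2 and Slc4a4 were added after their values were seen, and Slc1a3, Aldoc, Gja1, Gjb6, Aqp4, Gfap and Fgfr3 singled out likewise. The 3 most similar genes per member are given by correlation only and were not refitted or checked for overlaps. Of 37 named genes that are not members and have a position, 15 share exon bases with another gene. Alternatives were RLE and upper-quartile scaling, 2 other filters, DESeq2 1.42.0, limma-voom 3.58.1 with quality weights, a replicate block, a glial covariate from 14 genes, and left-out libraries. All pairs of libraries differed by more than sampling noise.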

Additional observations from a re-analysis of the deposited data

Results flagged for a closer look

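Each of 118 groups of 4 libraries was checked for a library far from the other 3, a check by which chance alone marks about 1 group in 20, and 13 were marked. None of the 5 adenosine genes was among them by its CPM. The Adora2a counts per 100 counts of Penk were low in dorsal striatum 3, at 2.49 against 3.35 to 3.52 in the other dorsal libraries.

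Accumbens 1 was far above the other accumbens libraries for Penk (777 CPM against 542 to 550 CPM) and for the summed indirect-pathway markers (987 CPM against 707 to 711 CPM). That sum is mostly Penk, so these marks are not independent. In accumbens the highest library also stood far from the rest for P2ry1 (10.9 CPM against 5.60 to 6.36), P2rx4 (5.76 CPM against 0.170 to 0.825), Slc29a3 (11.2 CPM against 4.46 to 5.10), Sp9 (17.7 CPM against 8.94 to 10.3) and the summed markers shared by striatal projection neurons (9372 CPM against 8208 to 8368). Pnp was low in 1 accumbens library (2.73 CPM against 8.20 to 8.503). In dorsal striatum the highest library was apart for Gnao1 (2046 CPM against 1877 to 1896) , Grik3 (43.0 CPM against 10.99 to 14.7) and Eya1 (975 CPM against 831 to 855), and the lowest for Calhm2 (0.138 CPM against 3.19 to 3.81).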

How the results depend on the processing

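Over 17 alternative fits, the log2 fold changes of 43 named genes, those given by correlation alone left out, kept direction and side of the threshold in 664 of 731 values. No called gene changed sign. Adora2a kept its call under both other scalings, both other filters, DESeq2, limma-voom and the replicate block, and without accumbens 2 or accumbens 3. It lost it with the glial covariate (1.12), without both accumbens 2 and dorsal striatum 3 (1.18) and without each of the other 6 libraries (1.19 to 1.54 over the 8 left out in turn). The cause was not tested. Adora1, Nt5e and Slc29a1 kept sign throughout, at -0.36 to -0.10, 0.17 to 1.09 and -1.39 to -0.70. Adk changed sign with the glial covariate (-0.49) and within its range over left-out libraries (-0.14 to 0.49). 

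Genes called were 464, and 767 with DESeq2 and 158 with the glial covariate. Those higher in accumbens were 200, and 350 without a filter, 376 with DESeq2 and 65 with the glial covariate, which left 93 lower and 3 pathway genes called.

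Uncalled genes near 0 changed sign. Panx2 stood at 0.0041 with RLE, 0.0022 without a filter, 0.0039 with DESeq2 and 0.043 with the block. With the glial covariate Entpd3 was at -0.21 and Pnp at -0.22. Without both accumbens 2 and dorsal striatum 3, Nt5c2 was at 0.087, P2rx6 at -0.53, Pnp2 at -0.14 and Slc29a3 at -0.43. Over left-out libraries the ranges were -1.41 to 0.20 for Entpd1, -0.071 to 0.36 for Pnp, -0.030 to 1.03 for Pnp2, -0.12 to 0.50 for Slc29a3, -1.39 to 0.27 for Calhm2, -0.15 to 1.11 for P2rx6, -0.053 to 0.33 for Panx1 and -0.17 to 0.22 for Panx2.

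The log2 difference of the Adora2a to Penk ratio was -0.0038 to 0.25 over left-out libraries. With the longest transcript as length, levels in CPM per kb were 1.26, 1.69 and 1.83 for Adk, Nt5e and Slc29a1 in accumbens, and 36.1, 1.16, 0.990 and 3.804 for Adora1, Adk, Nt5e and Slc29a1 in dorsal striatum.

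Same-numbered libraries were not more alike than others: their deviations correlated at -0.08 to 0.01, and 0 of 4 accumbens libraries matched their own number best. The labels do not say whether such libraries share animals, and these correlations cannot settle it. A replicate block gave 432 calls. Slc29a1 and Nt5e had as few as 7 and 23 reads in a library, and their 95% intervals hold changes as large as that of Adora2a, so differences of that size were not excluded at this depth.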
